A study of Mus musculus with 18 samples.

Results

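The genes described are 10 enzymes, transporters and transfer proteins that build triglyceride and phospholipid in the liver, of 52230 genes with a transcript in the tables. They were chosen by symbol: Gpam, Agpat2, Lpin1, Lpin2, Dgat1, Dgat2, Mogat1, Lpcat3, Mfsd2a and Mttp. Liver RNA was sequenced from 18 mice on standard chow, 1 library per mouse, aged 9 to 14 weeks by their labels. The mice came from the strain GCKR-P446L-EMI-B6N, in which GKRP, the liver protein that binds and inhibits glucokinase, carries either proline (446P, here PP) or leucine (446L, here LL) at that residue. Each genotype had 4 males and 5 females, which gave 4 groups by sex and genotype. The groups were not matched for age. Male PP mice were 9, 12, 14 and 14 weeks old by their labels and male LL mice 13, 13, 13 and 14. Female PP mice were 9, 9, 11, 12 and 14 weeks old and female LL mice 11, 11, 13, 13 and 14. The comparisons asked how the LL genotype and sex alter the liver transcriptome. The substitution is present in every cell of an LL mouse, and it is a change in the protein, so that the level of Gckr RNA does not check it. Gckr differed by LL genotype by -0.12 ± 0.15 (SE) on the log2 scale in males and by -0.05 ± 0.13 in females.

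Triglyceride is assembled on a glycerol backbone in steps that add fatty acids one after another. Glycerol phosphate is acylated to lysophosphatidic and then phosphatidic acid, the phosphate is removed to give diacylglycerol, and a last acylation gives triglyceride. Diacylglycerol is also the branch point to the phospholipids phosphatidylcholine and phosphatidylethanolamine, and the liver exports triglyceride in very low density lipoprotein, whose surface is phospholipid.

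Total estimated counts were 3794671 to 6613905 per library. Hepatocyte markers were abundant in every group. Of the 7 adipocyte markers, Adipoq, Lep and Retn were at 0 in all libraries, and Plin1 and Cfd were at 0 in some whole groups. Fabp4 and Cidec were above 0 in every library, with group means of 16.04 to 17.6 and 7.57 to 14.5 normalized counts. In a bulk liver sample, fewer cells of a type and less RNA per cell cannot be told apart. The fragment length inferred from the deposited tables of females was 448 ± 108 bases (SD, n = 5) for PP and 292 ± 52.1 (n = 5) for LL (two-sided exact permutation p = 0.0159, adjusted over 12 tests p = 0.19). In males it was 518 ± 95.7 (n = 4) for PP and 407 ± 156 (n = 4) for LL (exact permutation p = 0.286).

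Of the 10 genes, 9 had at least 10 counts in at least 4 libraries and were tested. A gene was called where the adjusted P of DESeq2 was below 0.05 and the fold was at least 1.3 or at most 0.7. Mfsd2a was higher by LL genotype in males, and among PP mice it was higher in females than in males. Lpin1 was lower in female LL than in male LL mice. The other 7 tested genes passed in none of the comparisons. By comparison, this was 1 of 9 in male LL against male PP, where 0.283% of all tested genes were called. It was 0 of 9 in female LL against female PP (0.658% of all genes), with 3 of 9 at an unadjusted p under 0.05 and 0 called with edgeR. It was 1 of 9 in female PP against male PP (6.45%) and 1 of 9 in female LL against male LL (6.12%). For the genotype by sex interaction, called on the adjusted P alone, it was 0 of 9 (0.119%). At an unadjusted p under 0.05 it was 2 of 9, and 0 were called with edgeR. Lpin1 and Dgat1 had no adjusted P for the interaction, so only 7 of the 9 could be called. In males Dgat1 had none, which left 8. Genes with an adjusted P numbered 3301 in males, 8598 in females and 1606 for the interaction. The percentages are of all 10938 tested genes, including those that could not be called.

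The ranges of the groups did not overlap for 1 gene in each comparison. This was Mfsd2a in male LL against male PP (4.07% of all tested genes did not overlap), Agpat2 in female LL against female PP (2.66%), Dgat2 in female PP against male PP (9.74%) and Lpin1 in female LL against male LL (8.16%). The median log2 difference of the 9 genes was 0.17 by LL genotype in males, where that of all tested genes was 7.86e-05. It was -0.11 by LL genotype in females (0.01 for all tested genes). The comparisons of the sexes share their mice with the comparisons of genotype, so their values are given side by side and not as separate evidence.

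**Figure D1:**
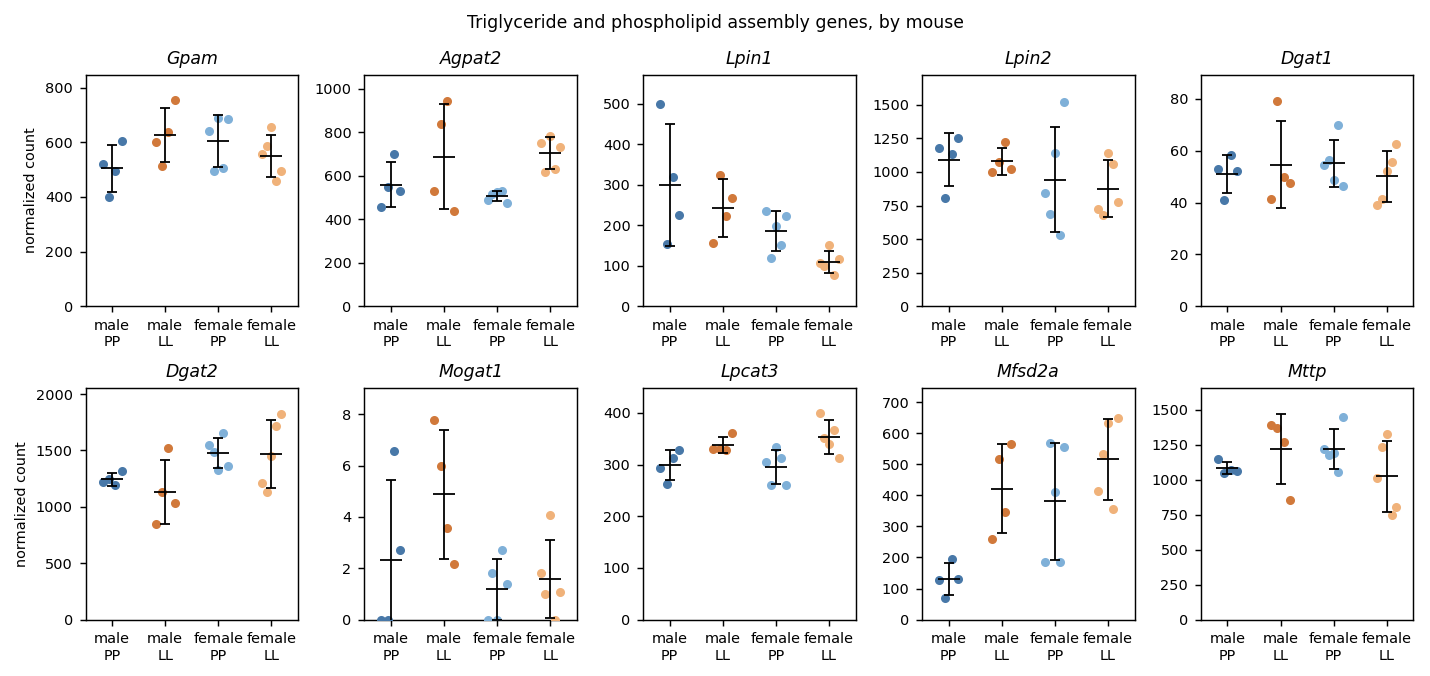
Normalized count (estimated count divided by the DESeq2 size factor, linear axis from 0) of each of the 10 genes by group, 1 point per mouse, with the mean and SD. The 4 male PP mice have the lowest mean of Mfsd2a, 131, and the female LL mice the lowest mean of Lpin1, 110, while Mogat1 is below 8 in every mouse.

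**Figure D2:**
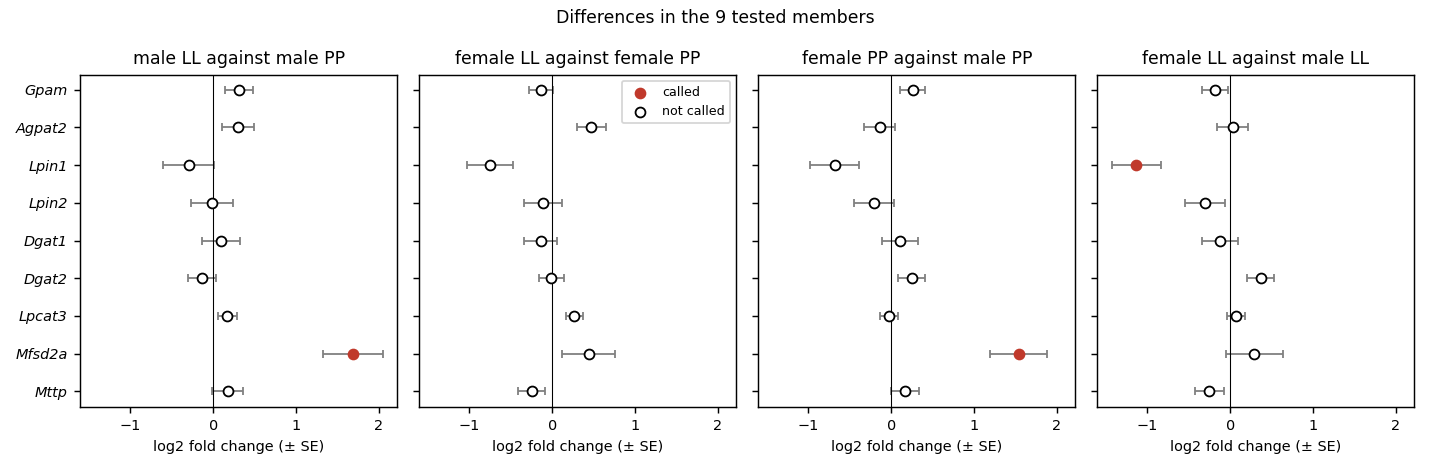
Log2 fold change with its standard error (DESeq2) of the 9 tested genes in each comparison, with called genes in red and others in white. Mfsd2a stands at 1.69 in males by LL genotype and at 1.54 between the sexes in PP mice, and Lpin1 at -1.13 between the sexes in LL mice.

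Mfsd2a is a membrane transporter of the major facilitator superfamily that takes up lysophosphatidylcholine carrying long-chain unsaturated fatty acids, and in liver it is known as a gene induced by fasting. It lies at chr4:122840643-122855244 (GRCm39, minus strand), and transcript Mfsd2a-201 held 99.2% of its estimated counts. The 250 bases upstream of the start of that transcript, chr4:122854982-122855231 on the minus strand, are shown because this gene carried the genotype call. Capitals mark AGGTCA, the core site of many nuclear receptors, at positions -213 to -208 from the start.

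Mfsd2a: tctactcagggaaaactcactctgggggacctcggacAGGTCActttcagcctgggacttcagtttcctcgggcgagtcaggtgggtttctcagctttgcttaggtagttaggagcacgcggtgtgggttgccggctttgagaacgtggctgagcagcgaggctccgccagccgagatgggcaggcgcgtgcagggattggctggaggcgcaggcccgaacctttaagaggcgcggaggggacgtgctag

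The letters searched on both strands were the E-box CACGTG, the cyclic AMP response element TGACGTCA and its shorter core TGACG, a direct repeat of AGGTCA with a single base between the copies, and the TATA box TATAAA. None of these is in this window. They are in 6.02%, 1.55%, 17.8%, 0.0335% and 12.4% of 32851 RefSeq promoters of the same length (table of build GRCm38.p6). The single site AGGTCA, which is part of the direct repeat and was added after the sequence was seen, is in 14% of them.

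The normalized counts of Mfsd2a were 126.4, 70.3, 196 and 131 in the male PP mice and 261, 516, 346 and 564 in the male LL mice. Every male LL mouse was above every male PP mouse. The mean rose from 131 ± 51.2 (SD, n = 4) to 422 ± 142 (n = 4), a 3.22-fold difference (95% interval 1.97 to 5.26) or 1.69 ± 0.36 (SE) on the log2 scale, with a DESeq2 adjusted P of 0.00155. It was called in 17 of 18 alternatives, and with edgeR the difference was 1.68 with an adjusted P of 0.183, so that the call rests on the tool. Over the alternatives the adjusted P ranged from 8.9e-06 to 0.183. By the same contrast all 8 Kupffer cell markers had a lower fitted mean in LL mice, with a median of -0.63, and 0 were called (6 at an unadjusted p under 0.05). Their summed level ranged over 520 to 1339 in the PP males and over 483 to 822 in the LL males, and none of them was at 0 in a whole group. All 5 tested stellate cell markers had a higher fitted mean in LL males, with a median of 0.55, and 0 were called (1 at an unadjusted p under 0.05). The summed level of all 6 stellate cell markers was 291 to 594 for PP and 510 to 837 for LL. The part of these markers in the result was not tested.

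In females, Mfsd2a was 185, 568.2, 410, 184 and 555 in PP and 413, 532, 631, 355 and 649 in LL mice. The female PP mice fell at both ends of a wide range and the groups overlapped. The difference by LL genotype was 0.44 ± 0.32 (interval -0.19 to 1.07, adjusted P = 0.546). The difference between the sexes in the effect of genotype was -1.25 ± 0.48, with an unadjusted DESeq2 p of 0.00995 and an adjusted P of 0.29. The effect of genotype on Mfsd2a is thus not shown to differ between males and females. In LL against PP females all 6 markers of sinusoidal endothelium had a lower fitted mean, with a median of -0.57. Of these 5 were at an unadjusted DESeq2 p under 0.05. Ptprb was called (-0.77 ± 0.21, adjusted P = 0.0335, not called in 10 of 20 alternatives). All 8 Kupffer cell markers were also lower, with a median of -0.43, and 0 were called (3 at an unadjusted p under 0.05). The part of these markers in the results of females was not tested.

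Between the sexes in PP mice, Mfsd2a was 2.9-fold higher in females (1.54 ± 0.34, adjusted P = 0.000318) and was called in 19 of 19 alternatives. The ranges overlapped, since 2 female PP mice, at 185 and 184, were below the highest male PP mouse at 196. In this comparison 4 of 6 markers of sinusoidal endothelium and 4 of 5 tested stellate cell markers were called higher in females. Of 7 hepatocyte markers, Alb was called higher in females (0.94 ± 0.10, DESeq2 adjusted P = 2.22e-17) and Serpina1c lower (-0.59 ± 0.18, adjusted P = 0.0229). The summed endothelial level was 237 to 401 in male PP and 450 to 895 in female PP mice. That of all 6 stellate cell markers was 291 to 594 and 684 to 938. None of these markers was at 0 in a whole group, and their part in the difference was not tested. In LL mice the difference between the sexes was 0.29 ± 0.34 (adjusted P = 0.692).

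The genes whose deviations from their group mean followed those of Mfsd2a most closely over the 18 libraries, among 5644 genes compared, were Polr1a (Pearson r = 0.79), Dusp1 (0.79), Mef2d (0.75), Ptdss1 (0.75) and Nop9 (0.74). Polr1a encodes the large subunit of RNA polymerase I, Dusp1 a phosphatase of MAP kinases and Ptdss1 a phosphatidylserine synthase. The 99th percentile of r among the genes compared was 0.564. Differences between groups were taken out, and the group means did not all follow Mfsd2a, at 131 in male PP and 516 in female LL mice. In these 2 groups the means were 71.8 and 41.1 for Polr1a, 69.9 and 53.65 for Dusp1 and 67.6 and 55.0 for Nop9. They were 54.8 and 62.2 for Mef2d and 108 and 119 for Ptdss1. The libraries share their depth and handling, and these values are descriptions.

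The first steps of the pathway were measured by Gpam and Agpat2. Gpam, the mitochondrial acyltransferase that adds the first fatty acid to glycerol phosphate, lies at chr19:55055700-55115784 (minus strand). Its normalized counts were 522, 399, 494 and 606 in PP males and 603, 512, 639 and 753 in LL males. The ranges overlapped, and the difference of 0.31 ± 0.16 had a DESeq2 adjusted P of 0.464. In females Gpam was 641, 496, 688, 507 and 684 in PP and 559, 586, 655, 458 and 496 in LL mice. The groups overlapped almost wholly, with a difference of -0.13 ± 0.15 (adjusted P = 0.728). The interaction was -0.44 ± 0.22 (unadjusted p = 0.0446, adjusted P = 0.464).

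Agpat2, the acyltransferase of the endoplasmic reticulum that makes phosphatidic acid, lies at chr2:26483061-26494637 (minus strand). In females it was 489, 519, 526.2, 532 and 477 in PP and 753, 618, 782, 633 and 731 in LL mice. The PP mice lay within a narrow range and every LL mouse was above them. The difference was 0.47 ± 0.17, a 1.38-fold higher level in LL, with an unadjusted p of 0.00727 and a DESeq2 adjusted P of 0.156, and Agpat2 was therefore not called. With only the female libraries in the fit the difference was 0.47 and the adjusted P was 0.00207, and over all 20 alternatives the adjusted P ranged up to 0.734. In males Agpat2 was 456, 550, 702 and 531 in PP and 531, 840, 944 and 441 in LL mice, with a spread in LL wider than the difference of 0.30 ± 0.20 (adjusted P = 0.611). With the transcript length offset the difference in males was -0.27 (adjusted P = 0.874). Of its estimated counts 80.7% were on a transcript with no coding sequence defined in the annotation, and 16.5% on the coding transcript Agpat2-201. The share of the former ran from 24.7% to 98.2% between libraries, and the values given are sums over all transcripts.

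The phosphatidic acid phosphatases Lpin1 and Lpin2 remove the phosphate to give diacylglycerol. Lpin1, which also acts as a transcriptional coactivator with PPAR alpha and is known as a gene induced in fasted liver, lies at chr12:16584818-16703913 (minus strand). The 250 bases upstream of its leading transcript Lpin1-209, chr12:16696968-16697217 on the minus strand, are shown since Lpin1 is the other gene with a call. None of the letters searched in Mfsd2a, AGGTCA included, is in them, and the sequence has no capitals. This window lies 36000 bases upstream of the start of Lpin1 in the RefSeq promoter table, so it is not the window of Lpin1 among the RefSeq promoters counted above.

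Lpin1: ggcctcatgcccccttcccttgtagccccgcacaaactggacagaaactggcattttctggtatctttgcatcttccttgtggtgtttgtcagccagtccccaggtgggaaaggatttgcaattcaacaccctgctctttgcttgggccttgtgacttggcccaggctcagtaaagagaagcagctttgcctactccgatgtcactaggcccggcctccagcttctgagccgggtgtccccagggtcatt

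Lpin1 was 499, 153, 321 and 226 in PP males, 157, 324, 223 and 268 in LL males, 236, 120, 198, 150 and 224 in female PP and 108, 99.8, 150, 76.5 and 117 in female LL mice. All female LL mice were below all male LL mice, and the male PP mice spread the most, with a coefficient of variation of 49.9%. The difference between female LL and male LL was -1.13 ± 0.29 (DESeq2 adjusted P = 0.00438), a level 0.456 times that of males. It was called in 18 of 19 alternatives, and with an offset for transcript length it was -0.99 with an adjusted P of 0.0701. The range over the alternatives was 0.000276 to 0.0701. In this comparison 7 of 8 Kupffer cell markers had a higher fitted mean in females (4 at an unadjusted DESeq2 p under 0.05). Of these, Vsig4 was called (0.85 ± 0.25, adjusted P = 0.016, not called in 5 of 19 alternatives). Of 7 hepatocyte markers Serpina1c was called lower in females (-0.79 ± 0.18, adjusted P = 0.000908). Of 6 endothelial and 5 tested stellate cell markers 0 were called. The part of these markers in the difference was not tested.

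Between the sexes in PP mice Lpin1 differed by -0.68 ± 0.29 (adjusted P = 0.156), and by -0.90 with an adjusted P of 0.0295 without male PP mouse 2. Without male PP mouse 1, which had the highest count, it was -0.33. By LL genotype Lpin1 differed by -0.75 ± 0.28 in females (unadjusted p = 0.00707, DESeq2 adjusted P = 0.156) and by -0.30 ± 0.31 in males (adjusted P = 0.796). With only the female libraries in the fit the adjusted P was 0.0407, and over the 20 alternatives it ranged from 0.0407 to 0.559. Transcript Lpin1-209 held 88.1% of the counts, but its share ran from 0% to 100% between libraries, and in female LL mouse 1 the counts stood on Lpin1-201.

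**Figure D3:**
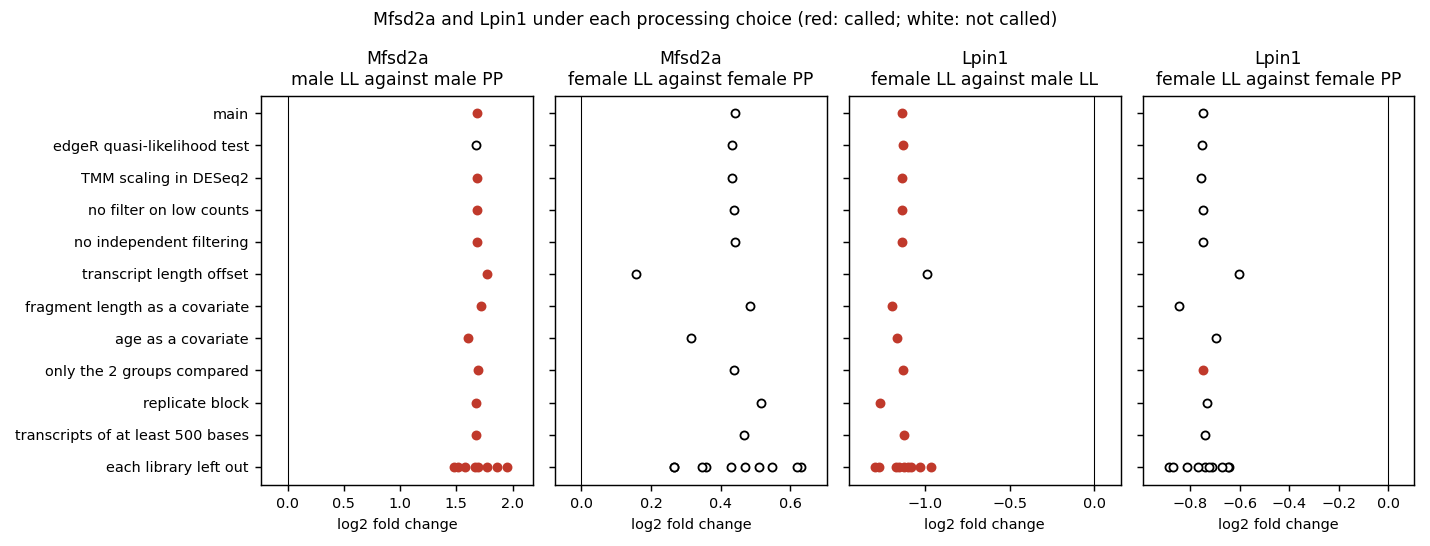
Log2 fold change of Mfsd2a and Lpin1 under each processing choice and with each library left out, called values in red and others in white. Mfsd2a in males stays between 1.48 and 1.95 and is not called with edgeR, and Lpin1 in LL mice stays between -1.30 and -0.97 and is not called with the transcript length offset.

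Lpin2, whose level was above that of Lpin1 in these livers, lies at chr17:71489555-71556909 (plus strand). Its normalized counts were 806 to 1252 in male PP, 997 to 1223 in male LL, 533 to 1519 in female PP and 679 to 1144 in female LL mice. The 4 ranges overlapped, and the differences by LL genotype were -0.02 ± 0.26 in males (adjusted P = 0.997) and -0.11 ± 0.23 in females (adjusted P = 0.873). The ratio of Lpin1 to Lpin2 on the TPM scale within a mouse had a median of 0.16 in PP males, 0.17 in LL males, 0.162 in PP females and 0.124 in LL females. None of the 4 comparisons of this ratio had an adjusted exact permutation p below 0.381.

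The last step of triglyceride synthesis is catalysed by Dgat1 and Dgat2, which are unrelated in sequence, from diacylglycerol. Dgat2, at chr7:98802491-98831991 (minus strand), was the most abundant of the 10 genes per length, with a median of 124 TPM. Its normalized counts were 1224, 1243, 1190 and 1322 in PP males, 850, 1134, 1521 and 1035 in LL males, 1548, 1487, 1325, 1654 and 1366 in female PP and 1214, 1135, 1452, 1714 and 1820 in female LL mice. All female PP mice were above all male PP mice, though the highest male was at 1322 and the lowest female at 1325. The differences by LL genotype were -0.13 ± 0.17 in males (adjusted P = 0.86) and -0.01 ± 0.15 in females (adjusted P = 0.988). Between the sexes the difference was 0.25 ± 0.16 in PP mice (adjusted P = 0.477) and 0.37 ± 0.16 in LL mice (unadjusted p = 0.0228, adjusted P = 0.158). Without male LL mouse 3, which had the highest count of its group, the latter was 0.54 with an adjusted P of 0.0127.

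Dgat1, at chr15:76385083-76396476 (minus strand), had normalized counts of 40.9 to 58.3 in male PP, 41.5 to 79.1 in male LL, 46.5 to 69.8 in female PP and 39.2 to 62.4 in female LL mice. The groups overlapped in every comparison. The differences by LL genotype were 0.09 ± 0.23 in males, where DESeq2 gave no adjusted P because of its filter on the mean, and -0.14 ± 0.20 in females (adjusted P = 0.802). Dgat1 overlaps Hsf1 on the opposite strand, 32.2% of the 31-base words of its transcripts are shared with that gene, and the counting strand was not stated, so the values of Dgat1 are uncertain. Dgat1-201 held 55.2% of its counts, from 4.45% to 98.3% between libraries.

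The ratio of Dgat2 to Dgat1 on the TPM scale within a mouse was 6.07, 9.28, 6.72 and 8.12 in PP males, 10.4, 9.35, 7.64 and 3.98 in LL males, 19.9, 24.3, 9.76, 7.83 and 15.1 in female PP and 11.3, 12.2, 26.6, 12.8 and 14.1 in female LL mice. On this scale every female LL mouse was above every male LL mouse. The log2 ratio of TPM was higher in females by 0.98 in LL mice (two-sided exact permutation p = 0.0159, the smallest that 5 against 4 allows, adjusted over 8 tests p = 0.127) and by 0.92 in PP mice (exact permutation p = 0.0476, adjusted p = 0.19). Both failed the adjustment. With estimated counts in place of TPM the differences were 0.47 in LL mice (exact permutation, adjusted p = 0.169) and 0.15 in PP mice (adjusted p = 0.381). On that scale the LL groups overlapped, since male LL mouse 3 stood at 30.5 and the female LL mice at 27.1 to 30.8. The TPM of Dgat1 depends on how its counts were shared between transcripts of different length. By LL genotype the log2 ratio of TPM differed by -0.01 in males (exact p = 1) and by 0.05 in females (exact p = 0.889).

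Mogat1, an acyltransferase that makes diacylglycerol from monoacylglycerol and is scarce in normal adult liver, lies at chr1:78487628-78514810 (plus strand). Its estimated counts were 0 to 7.21 per library, 43.3 in all, and 0 in 5 of the 18 libraries. No library reached 10 counts, so Mogat1 was not tested, and at 3 counts per library a level of 2.08 to 4.8 normalized counts is the limit of detection, for counting error only. Of the words of its transcripts 11.1% are shared with BC035947.

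Lpcat3 remodels phospholipid by putting polyunsaturated fatty acids on lysophosphatidylcholine, the lipid that Mfsd2a carries. It lies at chr6:124639765-124684440 (plus strand). Its normalized counts were 305, 260, 333, 313 and 261 in female PP and 401, 351, 341, 366 and 312 in female LL mice. Most LL mice were above the highest PP mouse, and the difference was 0.27 ± 0.10 (unadjusted p = 0.00965, DESeq2 adjusted P = 0.175). With the transcript length offset it was -0.006 (adjusted P = 0.998). In males it was 293, 262, 313 and 329 in PP and 331, 331, 328 and 361 in LL mice, a difference of 0.17 ± 0.12 (adjusted P = 0.633). Lpcat3 had a coefficient of variation within groups of 4.59% to 11.1%, against 24.4% to 49.9% for Lpin1 and 25.2% to 49.8% for Mfsd2a. Lpcat3 overlaps Emg1 on the opposite strand, and 8.88% of its words are shared with it.

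Mttp, the microsomal transfer protein that loads triglyceride onto apolipoprotein B, lies at chr3:137795612-137850729 (minus strand). Its normalized counts were 1150, 1051, 1068 and 1063 in PP males, 1391, 1367, 1269 and 856 in LL males, 1217, 1173, 1192, 1054 and 1449 in female PP and 1009, 1235, 1326, 750 and 804 in female LL mice. The LL groups spread more widely than the male PP group. The differences by LL genotype were 0.17 ± 0.18 in males (adjusted P = 0.807) and -0.25 ± 0.16 in females (adjusted P = 0.483), and neither was beyond the spread between mice.

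The medians over the 18 libraries of the level per length (TPM) ran in the order Dgat2, Agpat2 (median 97.5 TPM), Mttp (44.0), Lpcat3 (32.0), Mfsd2a (31.6), Lpin2 (27.2), Gpam (13.9), Dgat1 (10.2), Lpin1 (4.34) and Mogat1 (0.391). Dgat2 was above Agpat2 in 11 of 18 libraries, Lpcat3 above Mfsd2a in 12 and Mfsd2a above Lpin2 in 8, so these neighbours did not keep an order. Agpat2 was above Mttp in 18 of 18 libraries, as Lpin2 was above Gpam. By the median of its place within a library, Lpin2 (4.5) stood ahead of Lpcat3 (5) and Mfsd2a (6). The place of Mfsd2a ran from 2 to 9 of 10. Between groups its mean normalized count was 131 in male PP and 516 in female LL mice.

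Transcripts of at least 3000 bases lead in 4 of the tested genes, Gpam, Lpin1, Lpin2 and Mttp. By LL genotype in females all 4 had a lower fitted mean, and with the fragment length of the library as a covariate 2 of the 4 did. With the transcript length offset all 4 were again lower. Of the 5 genes with shorter transcripts, 3 had a higher fitted mean, as with the covariate, and 2 had with the offset.

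Other genes of the pathway were taken from lists. In the list of glycerolipid acylation, 1 of 15 tested genes was called by LL genotype in males. This was Acsl5, which activates fatty acids to acyl-CoA, higher by 0.64 ± 0.17 (adjusted P = 0.024), a call that 8 of 18 alternatives did not make. In females 0 of these 15 were called (2 at an unadjusted p under 0.05). In the list of head group enzymes 1 of 18 was called in females, Chkb, a choline kinase, higher by 0.54 ± 0.15 (adjusted P = 0.0472), a call that 16 of 20 alternatives did not make. In males 0 of these 18 were called by genotype (2 at an unadjusted p under 0.05).

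By LL genotype, 0 of 9 phospholipid remodelling genes, 0 of 14 lipoprotein assembly genes, 0 of 15 regulators and 0 of 12 clock genes were called with DESeq2 in either sex. At an unadjusted p under 0.05 these were 1, 1, 2 and 0 in males and 2, 5, 3 and 2 in females. The list of fasting-state genes was chosen with earlier results of these data known, so its counts are descriptions and not tests. In it, 14 of 14 had a higher fitted mean by LL genotype in males. Their median was 0.78 on the log2 scale, where that of all tested genes was 7.86e-05, and 2 of 14 were called. These were Cyp4a14, a fatty acid hydroxylase (3.98 ± 0.70, adjusted P = 1.87e-05, not called in 1 of 18 alternatives, edgeR with 0.0626), and Ehhadh, a peroxisomal beta-oxidation enzyme (0.84 ± 0.24, adjusted P = 0.0458, not called in 10 of 18 alternatives). The normalized counts of Cyp4a14 overlapped, at 10.5 to 153 in PP and 106 to 2486 in LL males, and it has close copies in the genome with which reads could be shared. Its genotype by sex interaction was -3.87 ± 0.93 (DESeq2 adjusted P = 0.018, not called in 12 of 27 alternatives). In females 13 of 14 had a higher fitted mean, with a median of 0.26, and 0 were called (1 at an unadjusted p under 0.05).

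**Figure D4:**
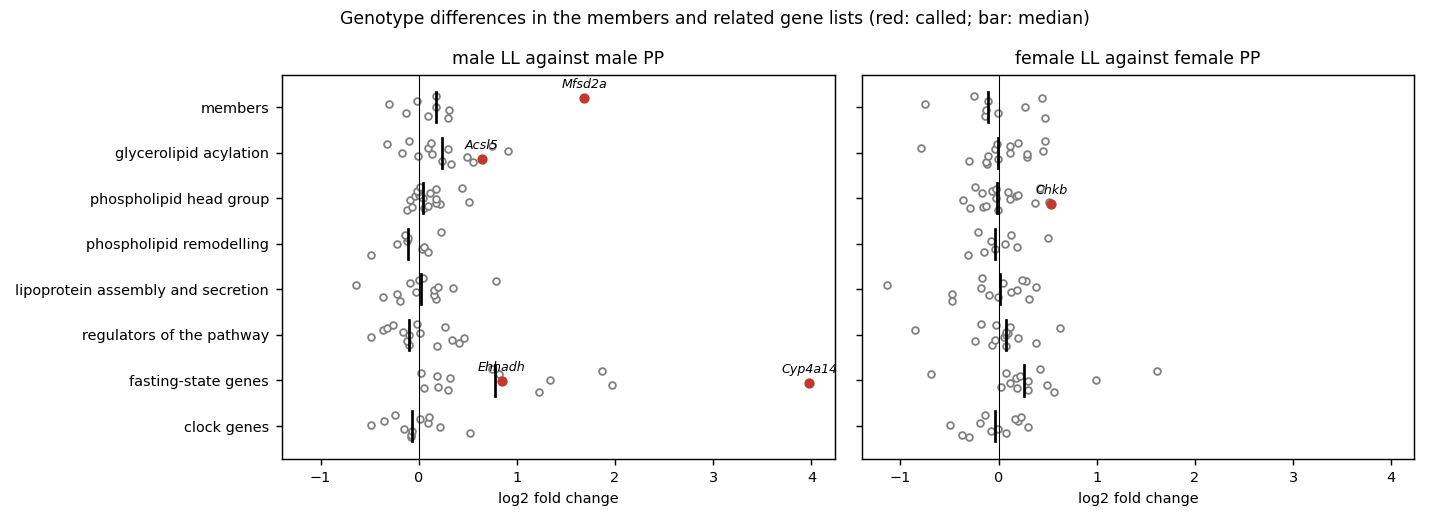
Log2 fold change by LL genotype (DESeq2) of each tested gene in the 10 genes and in the related lists, in males and in females, with called genes in red and named and the median of each list as a bar. The median of the fasting-state genes is 0.78 in males and 0.26 in females, and those of the other lists lie between -0.11 and 0.24. The lists were chosen with earlier results of these data known.

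Between the sexes the share of all tested genes called was 6.45% in PP and 6.12% in LL mice, and a list with 1 call of 14 or 15 lies near it. In PP mice, 2 of 15 glycerolipid acylation genes were called higher in females, 3 of 18 head group enzymes higher and 1 lower, 1 of 9 remodelling genes higher and 1 lower, 1 of 14 lipoprotein assembly genes higher, 1 of 15 regulators higher and 5 of 14 fasting-state genes higher. In LL mice these were 2 higher and 1 lower, 2 higher and 1 lower, 1 higher and 1 lower, 1 higher and 1 lower, 0, and 2 higher. The clock genes had 0 of 12 called in either comparison (2 in PP and 3 in LL mice at an unadjusted p under 0.05). Tm6sf2, which takes part in lipidation of very low density lipoprotein, was higher in females by 1.77 ± 0.30 in PP (adjusted P = 1.96e-07) and 1.26 ± 0.28 in LL mice (adjusted P = 0.000462). Gpat3, an acyltransferase of the first step like Gpam, was higher in females by 1.76 ± 0.34 in PP and 1.31 ± 0.31 in LL mice. Chpt1, which makes phosphatidylcholine from diacylglycerol, was lower in females by -0.95 ± 0.18 and -0.75 ± 0.18. Pemt, which makes phosphatidylcholine by methylation of phosphatidylethanolamine, was higher in females by 0.50 ± 0.14 and 0.69 ± 0.14. Gpcpd1, a phosphodiesterase of glycerophosphocholine, was lower by -1.10 ± 0.15 and -0.92 ± 0.16. Plaat3, a phospholipase and acyltransferase, was higher by 0.92 ± 0.28 and 1.19 ± 0.28. These 6 genes were called in both PP and LL mice, and Tm6sf2, Gpat3, Chpt1 and Gpcpd1 were so in 19 of 19 alternatives of each comparison. Plaat3 was not called in 6 of 19 alternatives in PP and 1 of 19 in LL mice. Pemt was not called in 2 and 1 of 19. Its difference was -0.30 in PP mice with the transcript length offset and 0.05 in LL mice with only transcripts of at least 500 bases. Also called in both were the fasting-state genes Cyp4a14 (6.09 ± 0.66 and 2.22 ± 0.66) and Vnn1 (1.28 ± 0.31 and 0.95 ± 0.31), of which Cyp4a14 was lost in 3 of 19 and Vnn1 in 11 of 19 alternatives in LL mice and neither in PP mice.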

How the data were processed

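RNA was extracted by the authors from livers of 18 mice, with an RNA integrity number above 6, checked with FastQC and assigned to GENCODE M26 transcripts (GRCm39) with Salmon 1.4.0, the version in the submitters' processing notes. The deposited tables hold estimated counts, not scaled by the authors, and TPM, scaled by the authors to a fixed total in every library. Transcripts were joined to genes with the GENCODE M39 annotation (137570 of 139225 transcripts), and estimated counts were summed per gene and rounded. The 10938 genes that reached 10 counts in 4 or more libraries entered 1 DESeq2 1.42.0 Wald fit with 4 groups and Benjamini-Hochberg adjustment. TPM was used only between genes within a library. Alternatives were the edgeR 4.0.16 quasi-likelihood test, TMM scaling, no filter on low counts, no independent filtering, a transcript length offset, fragment length or age as a covariate, only the groups compared, a replicate block, transcripts of at least 500 bases, and each library left out. The fit was tested on simulated data, in which DESeq2 made more false calls than edgeR and recovered more of the changed genes. Differences in ratios and library measures were tested by two-sided exact permutation. No library repeated another of its group, since counts differed beyond sampling noise in every pair (chi-square per degree of freedom 11.8 to 96.5). Each library is 1 mouse, and the tests set a difference against the variation between mice. In the DESeq2 fit the 4 groups shared 1 estimate of that variation for each gene. The series text gives an age of 14 weeks and the labels 9 to 14.

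All 10 genes are named, with called genes of each other list (at most 4 by adjusted P in a list and comparison, of which the sex differences called in both genotypes are given) and the 5 genes most like a gene called by genotype. The genes and lists were chosen with earlier results of these data known. Counts are at most 6613905 per library, which limits genes at a few counts.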

Additional observations from a re-analysis of the deposited data

Results flagged for a closer look

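Of 44 groups of mice examined for a single distant value, 3 were set apart by Dixon's criterion, which chance does in about 1 in 20 groups. Lpcat3 stood at 361 normalized counts in male LL mouse 4, with the other mice of the group at 328 to 331. Mttp stood at 1150 in male PP mouse 1, with the others at 1051 to 1068. The ratio of Dgat2 to Dgat1 (TPM) was 26.6 in female LL mouse 3, with the others at 11.3 to 14.1. On estimated counts that mouse stood at 28.0, within the 27.1 to 30.8 of its group. The effect of genotype on Cyp4a14 differed between the sexes by an interaction term of -3.87 ± 0.93 on the log2 scale, with 3.98 in males. This term had a DESeq2 adjusted P of 0.018 and was not called in 12 of 27 alternatives. The hepatocyte marker Alb was also called for the interaction, at -0.607 ± 0.145 (DESeq2 adjusted P = 0.018, not called in 11 of 27 alternatives).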

How the results depend on the processing

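The number of the 9 genes called in male LL against male PP was 1 and was 0 with edgeR. In female LL against female PP it was 0 and was 2 with only those groups in the fit (Agpat2 and Lpin1). In female LL against male LL it was 1, was 0 with the transcript length offset, and ranged from 1 to 2 with a library left out (2 without male LL mouse 3). In female PP against male PP it was 1 and ranged from 1 to 2 (2 without male PP mouse 2). With estimated counts in place of TPM the ratio of Dgat2 to Dgat1 differed between the sexes by 0.47 in LL and 0.15 in PP mice (0.98 and 0.92 with TPM). No called difference of the 9 genes changed direction. Over all genes, the calls in males were 31, with 3 by edgeR, 53 with the transcript length offset and 20 to 60 with a library left out (20 without male PP mouse 2, 60 without male LL mouse 4). In females they were 72, with 3 by edgeR, 44 with age, 14 with fragment length, 28 with the length offset and 28 to 270 with a library left out (270 without female PP mouse 4). Between the sexes in LL mice they were 669, and 432 with fragment length. For the interaction they were 13, with 0 by edgeR, 8 without independent filtering and 3 to 27 with a library left out.

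Deviations of same-numbered mice had correlations of -0.169 to 0.0451 in males and -0.0955 to 0.159 in females. The numbers were not taken as pairs. Mice of different numbers were not set beside them, so this check cannot exclude pairing. With a replicate block Mfsd2a in males was 1.67 and the calls over all genes 34 in males and 54 in females, and no call of the 9 genes changed.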
